A study of Mus musculus with 15 samples.

Results

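Cholesterol and fatty acid synthesis was followed through 32 genes in the skin of mice with sclerodermatous chronic graft-versus-host disease, a model in which immune cells of the donor damage the skin after a bone marrow transplant. The 32 genes are the listed enzymes of the mevalonate, sterol and fatty acid pathways and the regulators of SREBP, the transcription factor family that drives them. They were found by symbol among the 56059 genes of the deposited table. All 32 had 1 entry each, and all 32 passed the filter on low counts.

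Each library was made from total RNA of skin. Syngeneic recipients (n = 4) and allogeneic recipients (n = 3) received the vehicle, 0.4% methylcellulose, by mouth each day. Other allogeneic recipients received Wnt-C59 at 5 mg/kg alone (n = 4) or with belumosudil at 150 mg/kg (n = 4), again by mouth each day. Dosing covered day 21 to day 49 after the transplant, and all mice were killed at week 7. Wnt-C59 blocks porcupine, the enzyme that adds the lipid which Wnt proteins need to leave the cell. Belumosudil blocks the kinase ROCK2. Donor and recipient strains, sex and age are not given in the labels used here, nor is the vehicle of the treated mice.

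The libraries of the group with both drugs, called the combination here, were matched by elimination. Their columns carry the letters RW, which no label spells out. The title of the series also names ruxolitinib and ibrutinib as partners of porcupine inhibition, and the first letter of the code would fit ruxolitinib as well. Every value given for the combination rests on this match. Treated libraries are numbered as their columns are (Wnt-C59 1, 2, 4 and 5 and combination 2, 3, 4 and 5).

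Cholesterol is built from acetyl-CoA through mevalonate, the isoprenoids, squalene and lanosterol. Fatty acids are built from the same acetyl-CoA by acetyl-CoA carboxylase and fatty acid synthase, then lengthened by elongases and given double bonds by desaturases. SREBP-2 mainly drives the sterol genes and SREBP-1c the fatty acid genes, while INSIG proteins hold SREBP back in the endoplasmic reticulum when sterols are plentiful. In skin these pathways are active in epidermis, which needs sterols and fatty acids for its barrier, in sebaceous glands, which secrete lipid, and in the fat layer under the dermis.

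Total estimated counts were 16.26 to 20.39 M (mega) in the vehicle libraries and 18.99 to 28.78 M in the treated libraries. Between 31.07% and 34.39% of values above 0 carried a fraction in the vehicle libraries, and 44.76% to 60.62% did in the treated ones, and this difference and the treatment cannot be told apart. Fold changes of treated against allogeneic skin also followed GC content over 18227 genes. Spearman's rho across genes was 0.504 for Wnt-C59 and 0.541 for the combination, genes not being independent replicates. Against syngeneic skin it was 0.417 for Wnt-C59 and 0.496 for the combination, and it was -0.1 for allogeneic against syngeneic skin. For the genes of the list followed here, called members, a result with the GC trend removed is therefore given where it ends, adds or turns a call. No such result is given for cell type markers or for other pathway genes. Whether their calls hold with that trend removed is therefore not shown. A value given with the GC trend removed, or for a fit without 1 library, is a log2 fold change. Skin markers were present in all libraries: the 8 epidermal markers summed to 8970 to 15300 counts per M (CPM) in syngeneic skin and to 22700 to 41400 CPM in the other groups. Wnt-C59 library 4 held liver markers, with Alb at 1180 CPM against at most 19.4 CPM in every other library. Its 10 fat markers had the lowest sum of its group, although Car3 and Plin4 were not lowest in it. Combination libraries 4 and 5 held hair root sheath RNA, with Krt71 at 15100 and 2000 CPM against 0.659 and 0.914 CPM in libraries 2 and 3, and combination library 5 had almost no muscle RNA (Acta1 at 4.12 CPM). Less RNA per cell and fewer cells of a type cannot be told apart in bulk skin RNA. No label says that libraries of a group came from separate mice, so p-values measure the spread between these samples, which may be technical in part.

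Start regions of 6 members are shown because they belong to genes that the comparisons below turn on and because they differ in the motifs of this pathway. The sequences are from RefSeq (build GRCm38.p6, 250 bases before to 50 bases after the start), which is not the build of the count table, and 27 of the 32 members had an entry. Capitals mark TCACNCCAC, a core form of the sterol response element to which SREBP binds, and CCAAT (or ATTGG on the other strand), the motif of its partner NF-Y.
Hmgcs1 (chr13:119690101-119690400, plus strand): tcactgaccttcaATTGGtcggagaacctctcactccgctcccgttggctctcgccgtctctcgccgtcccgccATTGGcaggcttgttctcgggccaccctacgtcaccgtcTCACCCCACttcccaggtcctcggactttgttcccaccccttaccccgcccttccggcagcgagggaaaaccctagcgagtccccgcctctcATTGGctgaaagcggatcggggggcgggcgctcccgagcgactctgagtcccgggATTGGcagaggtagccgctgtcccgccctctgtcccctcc
Mvk (chr5:114444019-114444318, plus strand): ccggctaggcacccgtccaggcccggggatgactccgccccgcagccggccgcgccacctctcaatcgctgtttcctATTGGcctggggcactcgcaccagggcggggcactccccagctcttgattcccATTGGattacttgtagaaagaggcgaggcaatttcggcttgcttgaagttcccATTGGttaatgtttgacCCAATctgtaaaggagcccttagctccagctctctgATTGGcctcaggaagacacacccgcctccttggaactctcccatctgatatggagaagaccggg
Insig1 (chr5:28071162-28071461, plus strand): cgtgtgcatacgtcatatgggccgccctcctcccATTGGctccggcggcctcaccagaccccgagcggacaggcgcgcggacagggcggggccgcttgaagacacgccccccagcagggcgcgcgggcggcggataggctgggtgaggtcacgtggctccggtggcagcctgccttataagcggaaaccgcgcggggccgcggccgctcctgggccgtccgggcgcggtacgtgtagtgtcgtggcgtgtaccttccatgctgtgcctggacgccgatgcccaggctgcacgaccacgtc
Hsd17b7 (chr1:169969156-169969455, minus strand): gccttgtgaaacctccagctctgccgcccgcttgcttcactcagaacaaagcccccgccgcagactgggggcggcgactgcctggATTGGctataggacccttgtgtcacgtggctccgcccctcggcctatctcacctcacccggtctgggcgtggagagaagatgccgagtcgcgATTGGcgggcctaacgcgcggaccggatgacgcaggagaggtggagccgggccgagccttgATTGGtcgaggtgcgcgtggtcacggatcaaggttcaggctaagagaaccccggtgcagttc
Elovl6 (chr3:129532136-129532435, plus strand): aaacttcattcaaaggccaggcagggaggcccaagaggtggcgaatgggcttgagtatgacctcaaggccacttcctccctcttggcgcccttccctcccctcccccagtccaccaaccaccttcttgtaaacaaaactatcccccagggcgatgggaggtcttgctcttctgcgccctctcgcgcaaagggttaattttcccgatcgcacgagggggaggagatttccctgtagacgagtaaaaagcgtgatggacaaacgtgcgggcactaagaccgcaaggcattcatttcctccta
Fads2 (chr19:10101454-10101753, minus strand): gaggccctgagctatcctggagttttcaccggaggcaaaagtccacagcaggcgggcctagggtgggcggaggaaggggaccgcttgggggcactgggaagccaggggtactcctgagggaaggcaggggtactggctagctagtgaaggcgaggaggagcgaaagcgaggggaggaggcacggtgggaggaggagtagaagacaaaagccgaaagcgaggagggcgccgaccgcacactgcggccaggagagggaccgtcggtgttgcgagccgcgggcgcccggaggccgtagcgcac
Both strands were searched for both motifs, which do not overlap each other in these 6 windows. A gene can have more than 1 start region, and the 27 members had 34. CCAAT was found in 24 of these 34 (70.6%) and in 37.4% of all 32851 start regions of the same length. At least 1 start region held it in 23 of the 27 members (85.2%) and in 41.1% of all 27025 genes. TCACNCCAC was found in 1 of the 34, that of Hmgcs1 (2.94%), and in 1.24% of all start regions. Mvk, whose product phosphorylates mevalonate, held 5 CCAAT boxes and Hmgcs1 held 4, while the windows of Elovl6 and Fads2 held neither motif. These matches describe the letters of a window and not a bound site.

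Per kilobase of the longest annotated transcript, the most abundant member in syngeneic skin was Hmgcs1 (97.7 CPM per kb), which makes the substrate of the mevalonate step, followed by Elovl1 (84.6 CPM per kb), an elongase of very long saturated chains. Tm7sf2, a sterol reductase, was the least abundant (6.03 CPM per kb). In Wnt-C59 skin Elovl1 (279 CPM per kb) and Fasn (202 CPM per kb) stood first. Values below are CPM of the scaled library size, which rank libraries for 1 gene but not genes against each other.

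**Figure D1:**
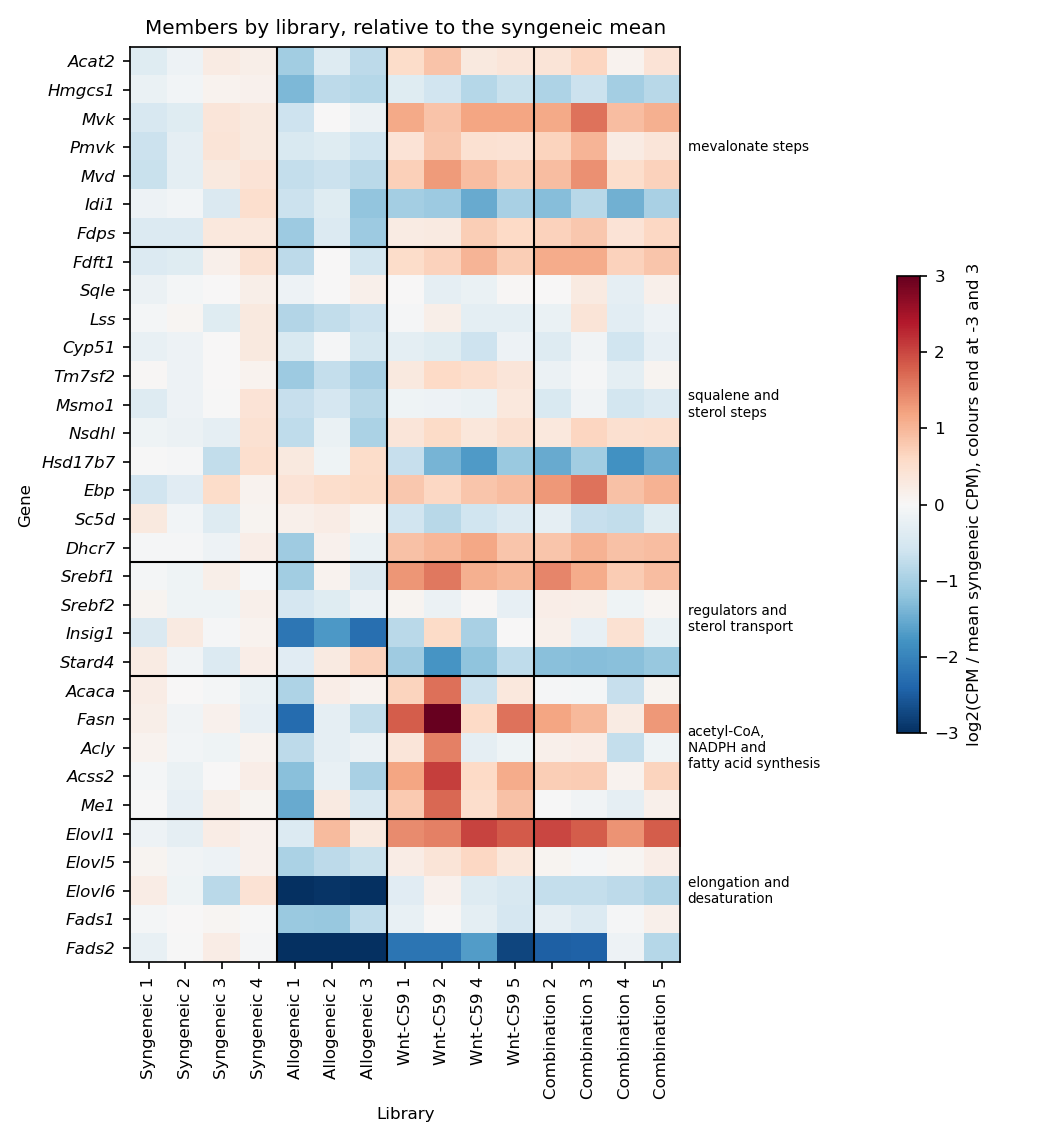
The 32 members in the 15 libraries, as colour for the log2 ratio of CPM to the mean syngeneic CPM (colours end at -3 and 3), ordered by role from top to bottom and by group from left to right. Elovl6, Fads2 and Insig1 are low in the 3 allogeneic libraries, and Hsd17b7 and Stard4 are low in the 8 treated libraries.

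Allogeneic skin was compared with syngeneic skin to ask how the disease changes the pathway. Of the 32 members 14 fell and none rose, with a median log2 fold change of -0.53 against -0.07 over all 18651 genes tested. Over all genes 15.1% fell and 14.6% rose. The falls lay in the mevalonate arm (5 of 7), the squalene and sterol steps (4 of 11), elongation and desaturation (4 of 5) and Insig1, while none of the 5 genes that supply acetyl-CoA and NADPH or build fatty acids passed the test. A gene was called at an adjusted p under 0.05.

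The elongases and desaturases held the deepest falls. Elovl6, which extends palmitate to stearate, stood at 466, 365, 228 and 544 CPM in the 4 syngeneic libraries and at 9.48, 52.4 and 23.4 CPM in the 3 allogeneic ones. Every allogeneic library lay far below the lowest syngeneic library, a fall to 0.0709 of the syngeneic level (log2 fold change -3.82 with SE 0.48, adjusted p = 8.7e-05). Fads2, the delta-6 desaturase of polyunsaturated fatty acids, stood at 63.3, 73.5, 86.7 and 72.8 CPM and at 4.62, 5.93 and 6.26 CPM. The groups did not overlap, and the ratio was 0.0757 (log2 fold change -3.72 with SE 0.53, adjusted p = 0.00024). Fads1, its neighbour in the same pathway, fell less, by a log2 fold change of -0.99 (adjusted p = 0.00047), and Elovl5, an elongase of polyunsaturated chains, by -0.80 (adjusted p = 0.00042). Elovl1 gave a log2 fold change of 0.38 (adjusted p = 0.3). Without allogeneic library 2, whose level was the highest of its group, the log2 fold change of Elovl6 was -4.57.

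Among the regulators, Insig1, the sterol-responsive brake on SREBP, stood at 72.3, 117, 94.3 and 104 CPM in syngeneic and at 21.5, 29.4 and 20.3 CPM in allogeneic libraries. All 3 allogeneic values lay below all syngeneic values (log2 fold change -2.03 with SE 0.34, adjusted p = 0.00062). Srebf1, the gene of SREBP-1, stood at 129, 123, 151 and 133 CPM and at 65.5, 143 and 99.8 CPM. Its groups overlapped and it did not pass (log2 fold change -0.39 with SE 0.24, adjusted p = 0.24). Srebf2, the gene of SREBP-2, stood at 234, 205, 205 and 246 CPM and at 157, 173 and 196 CPM, without overlap but short of the threshold (log2 fold change -0.34 with SE 0.14, adjusted p = 0.075). Stard4, a carrier of cholesterol between membranes, stood at 79.5, 61.7, 50 and 76.3 CPM and at 52.5, 80.6 and 108 CPM, with overlap (log2 fold change 0.26 with SE 0.24, adjusted p = 0.45).

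In the mevalonate arm Hmgcs1 stood at 296, 320, 365 and 371 CPM in syngeneic and at 133, 197 and 188 CPM in allogeneic libraries. The groups were separate (log2 fold change -0.97 with SE 0.17, adjusted p = 0.00076). Idi1, the isomerase that makes dimethylallyl diphosphate, stood at 146, 155, 121 and 231 CPM and at 104, 127 and 71.8 CPM, and its groups overlapped slightly (log2 fold change -0.69 with SE 0.24, adjusted p = 0.041). Fdps, which makes farnesyl diphosphate, stood at 128, 126, 210 and 211 CPM and at 79.9, 126 and 79.4 CPM. Its groups nearly touched and it passed (log2 fold change -0.83 with SE 0.23, adjusted p = 0.015). Acat2, the thiolase of the first step, and Mvd, the decarboxylase, also fell, with log2 fold changes of -0.71 (adjusted p = 0.016) and -0.72 (adjusted p = 0.047). Mvk and Pmvk, the kinases of the arm, gave a log2 fold change of -0.24 (adjusted p = 0.47) and -0.47 (adjusted p = 0.15).

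Of the squalene and sterol genes, Tm7sf2, Lss (lanosterol synthase), Msmo1 (a C4 methyl sterol oxidase) and Nsdhl (which acts in the removal of the same methyl groups) fell, with log2 fold changes of -0.93, -0.75, -0.67 and -0.60. Tm7sf2 stood at 19, 16.6, 18.6 and 20.1 CPM in syngeneic and at 8.69, 11.3 and 9.3 CPM in allogeneic libraries, without overlap (log2 fold change -0.93 with SE 0.15, adjusted p = 0.00044). Msmo1 stood at 114, 134, 147 and 198 CPM and at 92, 105 and 83 CPM. All allogeneic libraries lay under all syngeneic ones (log2 fold change -0.67 with SE 0.19, adjusted p = 0.017). Fdft1, squalene synthase, stood at 66.6, 69, 99.2 and 122 CPM and at 51.6, 90 and 60.4 CPM, with overlap (log2 fold change -0.41 with SE 0.23, adjusted p = 0.21). Sqle, squalene epoxidase, stood at 117, 127, 132 and 149 CPM and at 118, 133 and 145 CPM, with overlap (log2 fold change 0.01 with SE 0.15, adjusted p = 0.99). Cyp51, lanosterol demethylase, stood at 118, 124, 137 and 169 CPM and at 100, 133 and 95.5 CPM and overlapped (log2 fold change -0.33 with SE 0.17, adjusted p = 0.17). Hsd17b7, a sterol ketone reductase, stood at 46.7, 45.8, 28.3 and 66.6 CPM and at 57.3, 42.5 and 68.6 CPM. Its groups overlapped (log2 fold change 0.26 with SE 0.28, adjusted p = 0.52). Sc5d, a sterol desaturase, stood at 70.2, 54.2, 44 and 60.8 CPM and at 63.8, 67 and 60.5 CPM, with overlap (log2 fold change 0.15 with SE 0.17, adjusted p = 0.52).

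None of the fatty acid synthesis genes passed, and allogeneic libraries spread widely. Fasn, fatty acid synthase, stood at 572, 467, 556 and 424 CPM in syngeneic and at 102, 417 and 303 CPM in allogeneic libraries. All 3 lay under the lowest syngeneic value, but the gene did not pass (log2 fold change -0.88 with SE 0.51, adjusted p = 0.21). Acaca, acetyl-CoA carboxylase, stood at 157, 136, 130 and 117 CPM and at 70.6, 155 and 145 CPM (log2 fold change -0.13 with SE 0.41, adjusted p = 0.85), and its groups overlapped. Acly, which makes cytosolic acetyl-CoA from citrate, stood at 282, 246, 239 and 282 CPM and at 153, 218 and 232 CPM, without overlap (log2 fold change -0.38 with SE 0.36, adjusted p = 0.45). Acss2, which makes acetyl-CoA from acetate, stood at 41.1, 37.4, 42.8 and 49.2 CPM and at 18, 36.8 and 21.6 CPM, again without overlap (log2 fold change -0.74 with SE 0.31, adjusted p = 0.086). Me1, malic enzyme and a source of NADPH, stood at 151, 128, 172 and 161 CPM and at 53.4, 184 and 109 CPM (log2 fold change -0.41 with SE 0.34, adjusted p = 0.39), with allogeneic library 2 above every syngeneic one.

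Cell type markers moved in the same comparison. The 10 sebocyte markers summed to 1360 to 1950 CPM in syngeneic and to 131 to 348 CPM in allogeneic skin, and 8 of the 10 fell. Krt79 made up most of the syngeneic sum, and stood at 38.1, 154 and 259 CPM in allogeneic libraries. Far2 stood at 129 to 190 CPM in syngeneic and at 2.2 to 3.22 CPM in allogeneic libraries. Awat1, Dgat2l6 and Mogat1 were at 0 in at least 1 allogeneic library, but Mogat1 was low in syngeneic skin too (0.275 to 1.14 CPM). The 10 adipocyte markers summed to 1630 to 2800 CPM and to 639 to 2580 CPM, with 2 of 10 called lower and none at 0. The 8 hair follicle markers summed to 5350 to 16100 CPM and to 1.28 to 6.29 CPM, all 8 fell, and 7 of them, all but Lhx2, were at 0 in at least 1 allogeneic library. The 8 macrophage markers summed to 422 to 758 CPM and to 3180 to 4470 CPM, and 7 rose. All 6 T cell markers rose, 4 of 8 epidermal markers rose and 4 of 6 fibroblast markers fell. With an adipocyte score as a covariate 7 of the 14 falls remained, among them Elovl6 at -3.38 (adjusted p = 0.00082), and 7.76% of all genes fell. The score ran from 6.65 to 7.46 in syngeneic and from 4.76 to 6.58 in allogeneic libraries. In Wnt-C59 libraries it ran from 6.47 to 8.07, and in combination libraries from 7.67 to 8.15. It thus differed between vehicle allogeneic skin and each other group, and fits with it cannot cleanly separate score from group. The part of the other cell types in the result was not tested.

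Of the 34 other pathway genes tested, 5 rose and 7 fell. Abcg1, a cholesterol exporter, rose (log2 fold change 1.79 with SE 0.21, adjusted p = 4.2e-05), as did Lpin1, a phosphatidate phosphatase (log2 fold change 1.34 with SE 0.27, adjusted p = 0.0018). Elovl3, an elongase that the sebocyte list also holds, fell (log2 fold change -6.19 with SE 0.88, adjusted p = 0.00028). Scd1, the stearoyl-CoA desaturase, gave a log2 fold change of -1.23 (adjusted p = 0.12). Scap, the SREBP escort, gave a log2 fold change of -0.01 (adjusted p = 0.99), and Insig2 gave a log2 fold change of -0.70 (adjusted p = 0.085). Omitting syngeneic library 4, allogeneic library 1 or allogeneic library 3 each left 8 members called lower, with Acat2, Fdps, Idi1, Msmo1, Mvd and Nsdhl lost. Shares over all genes are not given for these fits, so whether such losses are particular to these members is not shown. Without allogeneic library 2 Acss2 was called lower, at -1.07 (adjusted p = 0.027), and without syngeneic library 3 Ebp was called higher, at 0.75 (adjusted p = 0.014). Mvd was not called with the GC trend removed, at -0.33 (adjusted p = 0.34).

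**Figure D2:**
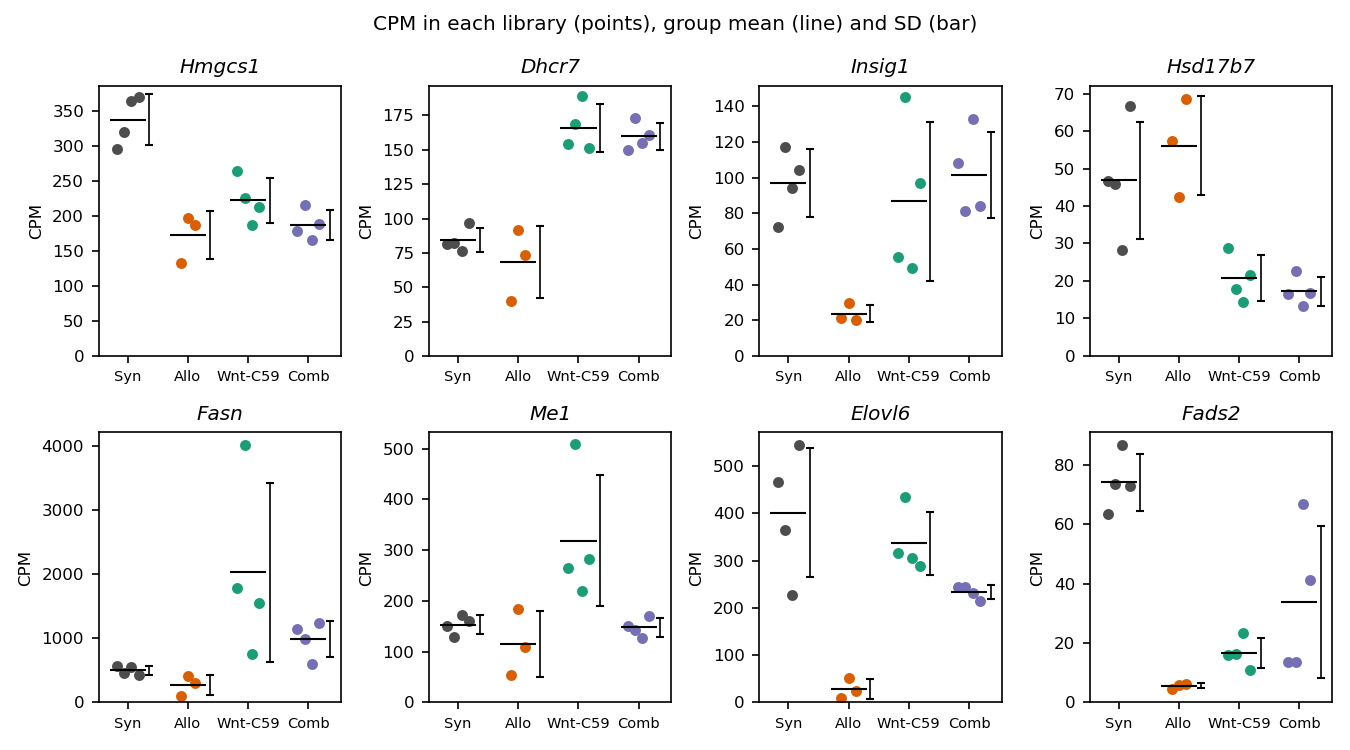
CPM of 8 members in each library (points) of syngeneic, allogeneic, Wnt-C59 and combination skin, with the group mean as a line and the SD as a bar, each panel with its own axis from 0. Elovl6 and Insig1 are low in the 3 allogeneic libraries and higher in all 8 treated ones, Hsd17b7 is low in the treated ones, and Fasn spreads from 758 to 4020 CPM within Wnt-C59 skin.

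Wnt-C59 skin was compared with vehicle allogeneic skin to ask what porcupine inhibition changes. Of the 32 members 22 rose and 3 fell, with a median log2 fold change of 1.10 against 0.00 over all genes. Over all genes 24.6% rose and 26.2% fell. The rises took in 5 of 7 mevalonate genes, 6 of 11 squalene and sterol genes, 2 of 4 regulators, 4 of 5 fatty acid synthesis genes and 5 of 5 elongases and desaturases. The falls were Hsd17b7, Sc5d and Stard4. The differences in GC trend and in fractional values given above lie between these groups too.

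Fatty acid synthesis and elongation held the largest rises. Elovl6 stood at 316, 435, 306 and 289 CPM in Wnt-C59 libraries, all above the highest allogeneic value of 52.4 CPM (log2 fold change 3.57 with SE 0.48, adjusted p = 5.5e-05). Without allogeneic library 2 its value was 4.36. Fasn stood at 1790, 4020, 758 and 1550 CPM, above the allogeneic libraries in each case (log2 fold change 2.89 with SE 0.55, adjusted p = 0.00074). Acss2 stood at 96.2, 180, 64.7 and 92.9 CPM, likewise without overlap (log2 fold change 2.09 with SE 0.33, adjusted p = 0.00015). Me1 at 265, 509, 220 and 282 CPM was above every allogeneic library (log2 fold change 1.47 with SE 0.35, adjusted p = 0.0032). Acly, at 336, 744, 217 and 239 CPM, overlapped and passed narrowly (log2 fold change 0.93 with SE 0.36, adjusted p = 0.044), and Acaca, at 215, 426, 86 and 169 CPM, overlapped and did not pass (log2 fold change 0.86 with SE 0.42, adjusted p = 0.1). Library 2 was the highest of its group for each of these 6 genes. Library 4, the one with liver markers and low fat markers, was the lowest for Fasn, Acaca, Acly, Acss2 and Me1. Without library 4 Acaca was called, at 1.12 (adjusted p = 0.017), and 23 members rose and 3 fell. The share over all genes in that fit is not given here. Acly was not called without library 1 or 2 or without any 1 of the allogeneic libraries, with its lowest value without library 2, at 0.39 (adjusted p = 0.2), nor with the GC trend removed, at 0.72 (adjusted p = 0.13).

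Fads2 stood at 16.1, 16.3, 23.3 and 11 CPM in Wnt-C59 skin, above the allogeneic range but under the lowest syngeneic library of 63.3 CPM (log2 fold change 1.57 with SE 0.49, adjusted p = 0.016). This call was lost with the GC trend removed, at 1.13 (adjusted p = 0.07), and without allogeneic library 1, at 1.45 (adjusted p = 0.064). Elovl1, Elovl5 and Fads1 rose with log2 fold changes of 1.34, 1.20 and 0.76.

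Insig1 stood at 55.2, 145, 49.2 and 96.9 CPM and lay above the allogeneic libraries in all 4 (log2 fold change 1.87 with SE 0.34, adjusted p = 0.00049). Srebf1 stood at 334, 399, 279 and 264 CPM, above all allogeneic and all syngeneic libraries (log2 fold change 1.63 with SE 0.25, adjusted p = 0.00011). Srebf2, at 237, 197, 227 and 187 CPM, overlapped allogeneic skin (log2 fold change 0.28 with SE 0.14, adjusted p = 0.11). Stard4, at 31.9, 19.5, 29.1 and 39.3 CPM, was below every allogeneic library (log2 fold change -1.42 with SE 0.25, adjusted p = 3e-04).

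In the mevalonate arm Mvd, Mvk, Fdps, Acat2 and Pmvk rose, with log2 fold changes of 1.65, 1.34, 1.31, 1.25 and 1.00. Fdps stood at 201, 203, 282 and 256 CPM, above the allogeneic range. Hmgcs1, at 264, 226, 187 and 213 CPM, overlapped it (log2 fold change 0.37 with SE 0.17, adjusted p = 0.082), and so did Idi1, at 79.9, 77.2, 57.4 and 82.9 CPM (log2 fold change -0.44 with SE 0.23, adjusted p = 0.13). With the GC trend removed Hmgcs1 was called higher, at 1.06 (adjusted p = 0.00079), and Pmvk was not called, at 0.39 (adjusted p = 0.18). Without allogeneic library 3 Idi1 was called lower, at -0.64 (adjusted p = 0.045).

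Among the sterol genes, Tm7sf2, Dhcr7 (which makes cholesterol from its 7-dehydro precursor), Fdft1, Nsdhl, Lss and Msmo1 rose, with log2 fold changes of 1.38, 1.28, 1.16, 1.04, 0.65 and 0.65. Fdft1 stood at 131, 143, 181 and 148 CPM and Msmo1 at 136, 133, 130 and 186 CPM, both above their allogeneic ranges. Without allogeneic library 3 Msmo1 was not called, at 0.56 (adjusted p = 0.067). Sqle, at 133, 109, 115 and 135 CPM, and Cyp51, at 112, 106, 88.4 and 124 CPM, overlapped allogeneic skin, with log2 fold changes of -0.10 (adjusted p = 0.62) and -0.03 (adjusted p = 0.92). Hsd17b7, at 28.9, 17.9, 14.5 and 21.5 CPM, fell below every allogeneic library (log2 fold change -1.44 with SE 0.28, adjusted p = 0.00078). Sc5d, at 38.6, 32.2, 38.1 and 43.3 CPM, did so too (log2 fold change -0.74 with SE 0.17, adjusted p = 0.0019), but this call was lost with the GC trend removed, at -0.01 (adjusted p = 0.96). Hsd17b7 and Stard4 kept their calls with that trend removed, at -0.85 (adjusted p = 0.018) and -0.83 (adjusted p = 0.0092).

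Markers of several cell types moved in the same comparison. The sebocyte markers summed to 2420 to 3140 CPM in Wnt-C59 skin and 8 of 10 rose. Krt79 made up most of this sum, at 1700, 1730, 2370 and 2100 CPM. The adipocyte markers summed to 2740 to 5680 CPM and 8 of 10 rose. The hair follicle markers summed to 60.1 to 85.7 CPM, with 1 of 8 called higher. Lhx2 made up most of that sum, at 63.3, 65.9, 78.7 and 56.9 CPM, while Krt71 stood at 0.564 to 0.76 CPM. The macrophage markers summed to 974 to 1570 CPM and the T cell markers to 22.7 to 35 CPM (52 to 83.4 CPM in allogeneic skin), and all 8 and all 6 fell. The fibroblast markers summed to 3710 to 7150 CPM against 1390 to 2650 CPM, with 5 of 6 higher, and of the epidermal markers 4 of 8 fell and 1 rose. With the adipocyte score as a covariate 8 members were called higher and 1 lower, against 10.7% and 9.5% of all genes. Elovl6 was still called, at 2.79 (adjusted p = 0.0051). Some of the lost calls had smaller values, as Fasn at 0.99 (adjusted p = 0.24) and Insig1 at 0.87 (adjusted p = 0.21). Others had values about as large, as Lss at 0.65 (adjusted p = 0.18), Fads2 at 1.74 (adjusted p = 0.11), Sc5d at -0.70 (adjusted p = 0.089) and Fads1 at 0.69 (adjusted p = 0.089). The part of the other cell types was not tested.

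Among the 34 other pathway genes 17 rose and 6 fell (50% and 17.6%, against 24.6% and 26.2% of all genes). Nr1h2, the sterol-sensing nuclear receptor LXR-beta, rose (log2 fold change 1.20 with SE 0.12, adjusted p = 8.1e-06). Mid1ip1, an activator of acetyl-CoA carboxylase, rose too (log2 fold change 1.60 with SE 0.19, adjusted p = 1.9e-05), as did Tecr, a reductase of fatty acid elongation (log2 fold change 2.04 with SE 0.25, adjusted p = 2.2e-05). Scd1 gave a log2 fold change of 1.88 (adjusted p = 0.017), Scap 0.86 (adjusted p = 0.0013) and Insig2 0.99 (adjusted p = 0.012), all called higher.

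**Figure D3:**
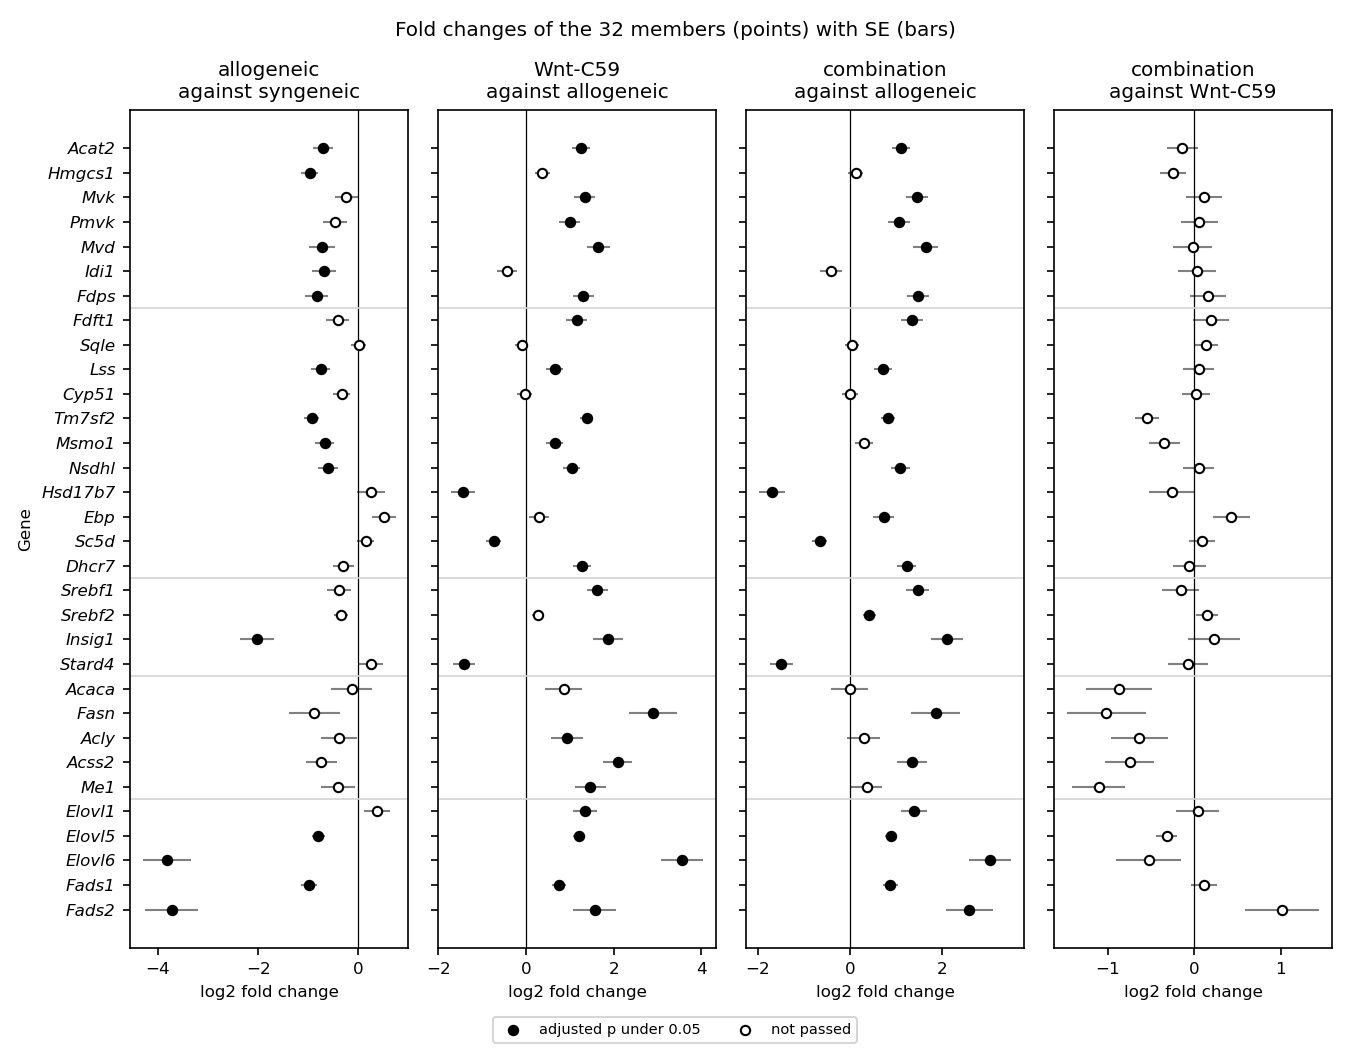
Log2 fold change (horizontal axis, its range set for each panel) with SE (bars) of the 32 members in 4 comparisons, filled where the adjusted p was under 0.05, with lines between the 5 roles. In the first panel 14 points are filled and all lie left of 0, in the panels of Wnt-C59 and the combination against allogeneic skin most lie right of 0, and in the last panel none is filled.

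The combination was compared with vehicle allogeneic skin. In the combination libraries 21 of the 32 members rose and 3 fell, with a median log2 fold change of 0.88 against 0.01 over all genes. Over all genes 27.1% rose and 27.4% fell. The 3 that fell were again Hsd17b7, Sc5d and Stard4. This comparison uses the same 3 allogeneic libraries as the one above.

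Elovl6 stood at 245, 244, 231 and 215 CPM, above every allogeneic library (log2 fold change 3.04 with SE 0.46, adjusted p = 0.00011). Without allogeneic library 2 its value was 3.86. Fads2 stood at 13.5, 13.7, 66.6 and 41.1 CPM, above the allogeneic range in all 4 libraries (log2 fold change 2.59 with SE 0.51, adjusted p = 8e-04). Its values differed widely within the group: libraries 4 and 5, the ones with hair root sheath RNA, were high, and libraries 2 and 3 were near the Wnt-C59 level. Elovl1, Fads1 and Elovl5 rose, with log2 fold changes of 1.38, 0.87 and 0.88.

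**Figure D4:**
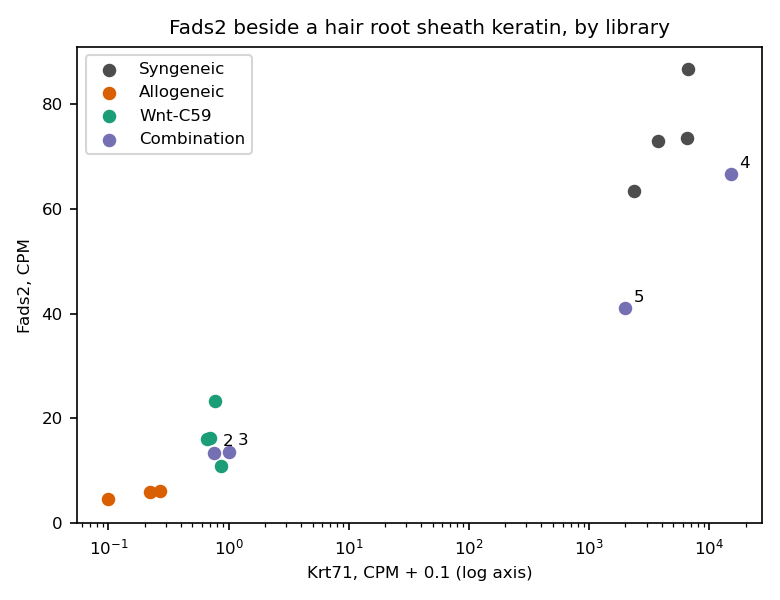
Fads2 in CPM (vertical axis from 0) against the hair root sheath keratin Krt71 in CPM (horizontal log axis with a small constant added), 1 point a library, coloured by group and numbered for the combination. Combination libraries 4 and 5 lie to the right with the syngeneic libraries, at 66.6 and 41.1 CPM of Fads2, and libraries 2 and 3 lie with the Wnt-C59 libraries at 13.5 and 13.7 CPM.

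In the plot of Fads2 by Krt71, the syngeneic libraries had Krt71 between 2360 and 6650 CPM and Fads2 between 63.3 and 86.7 CPM. The allogeneic libraries had Krt71 at 0 to 0.169 CPM and Fads2 at 4.62 to 6.26 CPM. The Wnt-C59 libraries lay between them in Fads2 with Krt71 at 0.564 to 0.76 CPM. The part of hair follicle RNA in the level of Fads2 was not tested.

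The regulators rose except for Stard4. Insig1 stood at 108, 81.2, 133 and 83.9 CPM, above the allogeneic libraries (log2 fold change 2.10 with SE 0.34, adjusted p = 0.00018), and Srebf1 at 368, 291, 227 and 253 CPM, likewise (log2 fold change 1.47 with SE 0.25, adjusted p = 0.00019). Srebf2, at 254, 250, 204 and 232 CPM, lay just above the allogeneic range (log2 fold change 0.42 with SE 0.14, adjusted p = 0.018). With the GC trend removed the value of Srebf2 turned to -0.34 (adjusted p = 0.08), and without allogeneic library 1 it was not called, at 0.35 (adjusted p = 0.081). Stard4 fell to 28.1, 27.7, 28.1 and 30.4 CPM, below all allogeneic libraries (log2 fold change -1.49 with SE 0.25, adjusted p = 0.00017).

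Of the 5 fatty acid synthesis genes 2 rose. Fasn stood at 1150, 993, 597 and 1240 CPM and Acss2 at 71.1, 72.4, 45.8 and 67.9 CPM, both above their allogeneic ranges (log2 fold change 1.86 with SE 0.53, adjusted p = 0.0084 for Fasn, log2 fold change 1.34 with SE 0.32, adjusted p = 0.0027 for Acss2). Acaca at 132, 130, 84.2 and 144 CPM, Acly at 291, 299, 160 and 239 CPM and Me1 at 151, 142, 127 and 171 CPM overlapped allogeneic skin, with log2 fold changes of -0.01 (adjusted p = 0.98), 0.30 (adjusted p = 0.49) and 0.36 (adjusted p = 0.39). Fasn was not called with the GC trend removed, at 1.12 (adjusted p = 0.092), and turned to -0.25 (adjusted p = 0.81) with the adipocyte score as a covariate. The scores did not overlap (4.76 to 6.58 in allogeneic and 7.67 to 8.15 in combination libraries). Score and group therefore cannot be cleanly told apart in that fit. Me1 was called higher without allogeneic library 2, at 0.90 (adjusted p = 0.035).

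Mvd, Fdps, Mvk, Acat2 and Pmvk rose, with log2 fold changes of 1.64, 1.47, 1.46, 1.11 and 1.06. Fdps stood at 274, 296, 223 and 259 CPM, clear of the allogeneic libraries. Hmgcs1, at 178, 216, 166 and 189 CPM, and Idi1, at 67.8, 91.7, 60.4 and 83 CPM, overlapped them (0.12 (adjusted p = 0.56) and -0.41 (adjusted p = 0.15) in log2 fold change). With the GC trend removed both were called higher, at 0.93 (adjusted p = 0.0016) and 0.59 (adjusted p = 0.039), and Pmvk was not called, at 0.37 (adjusted p = 0.19).

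The sterol genes Fdft1, Dhcr7, Nsdhl, Tm7sf2, Ebp and Lss rose, with log2 fold changes of 1.35, 1.23, 1.09, 0.83, 0.73 and 0.71. Fdft1 stood at 193, 192, 143 and 159 CPM, above allogeneic skin in every library. Sqle at 132, 157, 109 and 147 CPM, Cyp51 at 104, 127, 90.5 and 115 CPM and Msmo1 at 108, 138, 102 and 112 CPM overlapped it, with log2 fold changes of 0.05 (adjusted p = 0.8), 0.00 (adjusted p = 0.99) and 0.30 (adjusted p = 0.2). Msmo1 was called higher with the GC trend removed, at 0.89 (adjusted p = 0.0033), and Ebp was not called without allogeneic library 1 or combination library 3, at 0.69 (adjusted p = 0.055) and 0.58 (adjusted p = 0.052). Hsd17b7 fell to 16.5, 22.6, 13.3 and 16.7 CPM (log2 fold change -1.70 with SE 0.28, adjusted p = 0.00019) and Sc5d to 47.2, 35.7, 34.4 and 44.4 CPM (log2 fold change -0.66 with SE 0.17, adjusted p = 0.0038), both below all allogeneic libraries. Sc5d was at 0.20 (adjusted p = 0.27) with the GC trend removed, while Hsd17b7 and Stard4 kept their calls at -0.99 (adjusted p = 0.0074) and -0.80 (adjusted p = 0.011).

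The sebocyte markers summed to 3050 to 3730 CPM in the combination and the adipocyte markers to 3480 to 5080 CPM, with 8 and 9 of 10 called higher than in allogeneic skin. Krt79 made up most of the sebocyte sum, at 3260, 2840, 2780 and 2670 CPM. Against Wnt-C59 skin 9 of the 10 sebocyte markers had a negative log2 fold change (median -0.38), and none passed. The hair follicle markers summed to 56.9 and 40.7 CPM in libraries 2 and 3 and to 32600 and 4590 CPM in libraries 4 and 5. All 8 were called higher, but libraries differed. Krt25 was at 0 CPM in libraries 2 and 3 and at 7650 and 1310 CPM in libraries 4 and 5, while Lhx2 was at 54.2, 35, 121 and 104 CPM. The macrophage markers summed to 1150 to 2120 CPM, with 6 of 8 lower, and the T cell markers to 24.6 to 48.2 CPM, with 4 of 6 lower. The fibroblast markers summed to 3460 to 7160 CPM, with 5 of 6 higher, and of the epidermal markers 3 of 8 fell and 1 rose. With the adipocyte score as a covariate 4 members were called higher and 1 lower, against 9.4% and 9.57% of all genes. Lost calls included smaller values, as Insig1 at 0.99 (adjusted p = 0.19), and values near those of the fit without the score, as Lss at 0.70 (adjusted p = 0.19), Fads1 at 0.79 (adjusted p = 0.09), Srebf2 at 0.54 (adjusted p = 0.16) and Sc5d at -0.61 (adjusted p = 0.18). The part of the other cell types was not tested.

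Of the 34 other pathway genes 15 rose and 6 fell (44.1% and 17.6%, against 27.1% and 27.4% of all genes). Nr1h2 had the smallest adjusted p (log2 fold change 1.25 with SE 0.12, adjusted p = 4.8e-06). Mbtps2, the site-2 protease that releases SREBP, fell (log2 fold change -1.66 with SE 0.19, adjusted p = 1.1e-05). Mid1ip1 and Tecr rose by 1.52 and 1.77 on the log2 scale. Scap gave a log2 fold change of 0.93 (adjusted p = 0.00063), Insig2 1.32 (adjusted p = 0.0019) and Scd1 1.05 (adjusted p = 0.14).

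**Figure D5:**
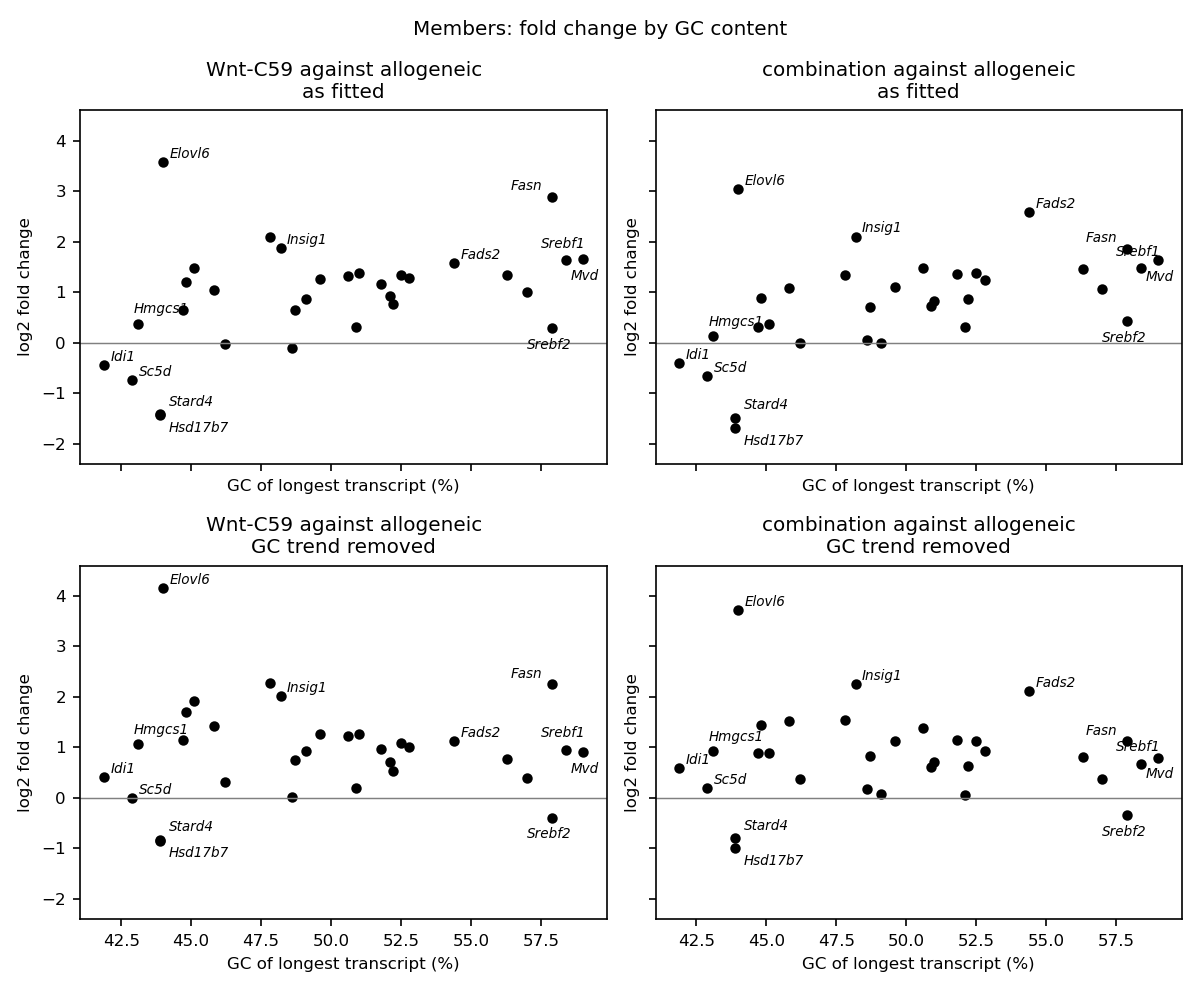
Log2 fold change (vertical axis) of the 32 members against the GC content of the longest transcript in percent (horizontal axis), for Wnt-C59 and the combination against allogeneic skin, as fitted (top) and with the GC trend removed (bottom). As fitted, members of low GC content such as Idi1, Sc5d, Stard4 and Hsd17b7 lie lowest, and with the trend removed Stard4 and Hsd17b7 stay below 0.

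GC content of the members ran from 41.9% to 59%, with a median of 49.4% against 49.7% over the genes tested. Across the 32 members Spearman's rho of fold change with GC content was 0.456 for Wnt-C59 and 0.575 for the combination against allogeneic skin, and -0.001 and 0.007 with the trend removed, given as a description since the members share libraries. The median log2 fold changes of the members were then 0.96 and 0.82.

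The combination was compared with Wnt-C59, which reads the addition of belumosudil if the match by elimination holds. None of the 32 members passed in edgeR's test, and the median log2 fold change was 0.00 against -0.01 over all genes. Over all genes 0.102% rose and 0.129% fell. An unadjusted p under 0.05 was found for 7 of the 32 members and for 3892 of all 18651 genes tested, a similar share. DESeq2 called 2 members lower, Me1 and Tm7sf2, where it called 3.39% of all genes lower, and limma-voom called no member. The 7 were Tm7sf2, Me1, Elovl5, Acss2, Acaca and Fasn, which were lower in the combination, and Fads2, which was higher.

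Me1 gave a log2 fold change of -1.11 (adjusted p = 0.096) with an SE of 0.31, and its 4 combination libraries lay below all Wnt-C59 libraries. Tm7sf2, at 22.7, 28.3, 26.4 and 24 CPM in Wnt-C59 and 16.4, 18.1, 15.1 and 19.7 CPM in combination skin, was also separate (log2 fold change -0.55 with SE 0.14, adjusted p = 0.078). The 5 genes of acetyl-CoA, NADPH and fatty acid synthesis had a median of -0.87, and the Fasn libraries overlapped (log2 fold change -1.02 with SE 0.46, adjusted p = 0.23). Fads2 overlapped too (log2 fold change 1.02 with SE 0.43, adjusted p = 0.2). With 1 library left out, Fasn ranged from -1.3 to -0.45, Acaca from -1.14 to -0.35 and Acly from -0.83 to -0.1. Acss2 then ranged from -0.93 to -0.4 and Me1 from -1.25 to -0.79. Wnt-C59 library 2 was the highest of its group for all 5 synthesis genes. Insig1 and Srebf1 gave a log2 fold change of 0.23 (adjusted p = 0.69) and -0.16 (adjusted p = 0.7). None of the 34 other pathway genes passed.

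Each treated group was also set against syngeneic skin. In Wnt-C59 skin 14 members rose and 6 fell, where 26% of all genes rose and 27% fell. In the combination 10 rose and 6 fell, where 26.9% of all genes rose and 27.2% fell. The median log2 fold changes were 0.44 and 0.06. These comparisons share the syngeneic libraries, and each treated group also stands in a comparison above. The differences in GC trend and in fractional values lie between these groups too. Across the members Spearman's rho of fold change with GC content was 0.592 for Wnt-C59 and 0.671 for the combination. With the trend removed it was 0.292 and 0.238.

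Elovl1 was higher than in syngeneic skin in both groups, with log2 fold changes of 1.72 (adjusted p = 9.6e-05) and 1.76 (adjusted p = 6.3e-05). Srebf1 was higher too, at 1.25 (adjusted p = 0.00037) and 1.09 (adjusted p = 0.00086). Elovl6 and Insig1 did not pass in either group: Elovl6 gave a log2 fold change of -0.25 (adjusted p = 0.6) and -0.78 (adjusted p = 0.1), and Insig1 -0.17 (adjusted p = 0.66) and 0.07 (adjusted p = 0.87). Fasn rose in Wnt-C59 skin (2.01 (adjusted p = 0.0031)) and gave a log2 fold change of 0.98 (adjusted p = 0.088) in the combination. Fads2 stayed lower in both groups, at -2.15 (adjusted p = 0.0012) and -1.14 (adjusted p = 0.037), and the second call was lost in 7 of the 8 fits that left out a syngeneic or combination library, the exception being combination library 4.

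Stard4 and Hsd17b7 were lower than in syngeneic skin too. Stard4 gave a log2 fold change of -1.16 (adjusted p = 0.00086) in Wnt-C59 and -1.23 (adjusted p = 0.00049) in combination skin, and Hsd17b7 -1.18 (adjusted p = 0.0021) and -1.44 (adjusted p = 0.00046). Hmgcs1 and Idi1 were lower as fitted, Hmgcs1 at -0.61 (adjusted p = 0.0046) and -0.85 (adjusted p = 0.00038) and Idi1 at -1.13 (adjusted p = 0.00074) and -1.11 (adjusted p = 0.00075). With the GC trend removed neither was called in either comparison. With that trend removed Nsdhl was called higher in Wnt-C59 skin, at 0.80 (adjusted p = 0.0026), and Fads1 and Srebf2 lower, at -0.39 (adjusted p = 0.038) and -0.46 (adjusted p = 0.017). In the combination Elovl5 and Acss2 were then called higher, at 0.60 (adjusted p = 0.0013) and 0.81 (adjusted p = 0.035), and Srebf2 lower, at -0.41 (adjusted p = 0.03). Sc5d was lower as fitted, at -0.59 (adjusted p = 0.0055) and -0.50 (adjusted p = 0.013), and turned to 0.03 (adjusted p = 0.86) and 0.24 (adjusted p = 0.15) with that trend removed. Mvd, Mvk, Pmvk, Fdft1, Dhcr7 and Ebp were higher in both, with Mvk at 1.10 (adjusted p = 0.00076) and 1.21 (adjusted p = 0.00032), Dhcr7 at 0.98 (adjusted p = 0.00077) and 0.92 (adjusted p = 0.001) and Ebp, the sterol isomerase, at 0.81 (adjusted p = 0.006) and 1.24 (adjusted p = 0.00028). Pmvk was not called in either with the GC trend removed, Mvd was then not called in the combination, and the Pmvk calls were lost without syngeneic library 1 or 2, among other libraries. Of the 34 other pathway genes 14 rose and 4 fell in Wnt-C59 skin, and 9 rose and 5 fell in the combination.

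Some members overlap another gene, and no label states whether reads were counted by strand, so their values are uncertain. Fdft1 overlaps Ctsb on the opposite strand, which had 343727 counts in all against 38349 for Fdft1, and Tm7sf2 overlaps Vps51 on its own strand (18422 against 5660 counts). Elovl1, Cyp51, Srebf1 and Acss2 overlap Cdc20, Akap9, Rai1 and Gss. Acat2 has a close copy in the genome, Acat3, and reads that fit both cannot be assigned with certainty.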

How the data were processed

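Estimated counts for 15 libraries make up the deposited table, per the file headers, without scaling to library size. The submitters' processing notes name FastQC, Trim Galore, HISAT2, featureCounts and build GRCm39, without versions; which of them wrote these values is not given in the sources used here. The values are not all whole, so they were rounded to whole numbers, although the design had assumed counts. Symbols were matched by identifier for 51276 of 56059 genes (91.5%), and GC content and length came from GENCODE M21 (build GRCm38).

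Libraries were scaled by TMM and genes filtered by filterByExpr in edgeR 4.0.16 (R 4.3.3), which left 18651 genes. Its quasi-likelihood fit (robust) took all 15 libraries, with group and no covariate, and p-values were adjusted by Benjamini-Hochberg over all genes tested in each comparison, with calls at an adjusted p under 0.05. Every adjusted p in the text is from this test unless another setting is named. SE is the log2 fold change divided by the square root of the F statistic. The steps were tested on simulated data for allogeneic against syngeneic, Wnt-C59 and combination against allogeneic, and combination against Wnt-C59. In that order 27.5%, 19.1%, 33% and 36.4% of 2-fold changes were recovered, and 75.2%, 74.5%, 73.8% and 75.3% of 4-fold changes. A gene that did not pass may therefore still have changed. The simulation changed far fewer genes than were called against allogeneic skin, so these shares are a rough guide.

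Alternatives were DESeq2 1.42.0, its size factors in edgeR, limma-voom (limma 3.58.1), no filter, only the compared groups, a per-library GC trend removed by loess (span 0.4), an adipocyte score (mean log2 CPM of 10 markers) as covariate, each library left out, and a replicate block. The 32 members, the marker lists and the 35 other pathway genes were chosen with earlier results of these data known. Values in every library are given for 16 members chosen by role, for the 3 members with the largest called rise and the 3 with the largest called fall in each of the 4 main comparisons, and for Tm7sf2, which was added after its values were seen. Of the other pathway genes at most 4 called ones with the smallest adjusted p are named in a comparison, plus Scap, Insig2 and Scd1, and 1 gene that this rule took is not reported here.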

Additional observations from a re-analysis of the deposited data

Results flagged for a closer look

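In 96 sets of 4 libraries (32 members in 3 groups), 6 had a library far from the other 3 by Dixon's test at the 95% level, and chance gives about 1 in 20. The allogeneic group, with 3 libraries, was not tested. In Wnt-C59 skin Mvk was low in library 2 (90.0 CPM against 110 to 114 CPM), Pmvk was high in the same library (76.6 CPM against 58.6 to 59.9 CPM) and Msmo1 was high in library 5 (186 CPM against 130 to 136 CPM). In syngeneic skin Nsdhl was high in library 4 (62.8 CPM against 38.3 to 41.7 CPM). In the combination Stard4 was high in library 5 (30.4 CPM against 27.7 to 28.1 CPM) and Acss2 was low in library 4 (45.8 CPM against 67.9 to 72.4 CPM).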

How the results depend on the processing

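Counts of members called changed most with the adipocyte score as a covariate: the falls in allogeneic against syngeneic skin went from 14 to 7, the rises of Wnt-C59 against allogeneic from 22 to 8 and its falls from 3 to 1, the rises of the combination against allogeneic from 21 to 4 and its falls from 3 to 1, and the combination against Wnt-C59 had 1 member called lower (Me1). DESeq2 called 2 lower in that last comparison. With 1 library left out, falls in allogeneic against syngeneic skin ranged from 8 to 14 and rises from 0 to 1. The replicate block was possible only for allogeneic against syngeneic and was fitted without the treated libraries. It called 4 members lower, where the same libraries without the block gave 11. Counts over all genes are not given here for these fits or for those with 1 library left out. Whether the lost calls are particular to the members therefore cannot be read from these counts. Same-numbered libraries did not deviate together (correlations -0.065, -0.091 and -0.03), and pairs with other numbers gave -0.005 to 0.093. This check rests on 3 libraries of each group and cannot exclude a shared batch. No paired analysis was possible for the treated groups because their columns carry numbers that are not those of the sample titles. With the GC trend removed the combination against allogeneic turned to 0.59 for Idi1, 0.20 for Sc5d and -0.34 for Srebf2, Sc5d turned to 0.03 in Wnt-C59 against syngeneic and 0.24 in the combination against syngeneic, and Srebf2 there turned to -0.41; with the adipocyte score Fasn in the combination against allogeneic turned to -0.25. Beyond the value of the score or trend itself the cause was not tested. The other counts of members called stayed within 1.5 times of those reported under every alternative run. The spread of 3 allogeneic libraries limits every comparison with that group.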
